A study of Mus musculus with 6 samples.

Results

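The genes described here encode the proteins of the cytosolic ribosome, with their paralogs and transcribed copies. They were chosen by symbol alone: Rpl or Rps followed by a digit, without the S6 kinases (Rps6k), plus Rplp0, Rplp1, Rplp2 and Rpsa, with at least 60 counts summed over the libraries. Of 95 genes with such a symbol, 91 of the 24532 genes in the deposited table met the minimum. The lowest that did were Rps15a-ps6 with 77 counts and Rpl14-ps1 with 269, and the others, Rpl32l, Rps15a-ps4, Rpl39l and Rpl10l, had 45, 43, 36 and 0. The members comprised 31 proteins of the small (40S) subunit, 46 of the large (60S) subunit, 6 paralogs, 7 retrocopies or pseudogenes, and Rps19bp1, which encodes a protein that binds Rps19 and is no ribosomal protein.

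RNA-seq was performed on gastrocnemius (GAS) muscle, a mixed calf muscle of mostly fast fibers, from male C57BL/6 mice of about 20 weeks, with 1 library per animal. The WT group was 3 Sirt6 flox/flox mice without Cre. The other group, labelled Sirt6 KO and called KO-labelled here, was 3 mice with the same floxed alleles and Myl1-Cre, so that both groups carried the floxed gene. Myl1-Cre is active mainly in fast (type II) fibers and from embryonic life on, and leaves Sirt6 intact in the other cells of the muscle. The library totals lay between 44845763 and 63016899 counts. In WT, Sirt6 itself was at 2.77, 2.23 and 2.88 CPM (counts scaled to a common library size). The KO-labelled libraries had more of it, at 7.81, 7.44 and 6.68 CPM, which goes against the labels; counts per gene do not tell deleted exons from kept ones. Every direction given here therefore rests on the labels. Fast fiber markers, such as Myh4 and Acta1, summed to between 146766 and 247583 CPM and were thus abundant in all 6 libraries.

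Each ribosome is built from ribosomal RNA and one copy of most ribosomal proteins, and the free proteins are unstable, so that their genes are usually expressed together. Their mRNAs begin with a C followed by a run of pyrimidines, the terminal oligopyrimidine (TOP) motif, through which mTORC1 and LARP1 control how well they are translated. In skeletal muscle the number of ribosomes sets a ceiling on protein synthesis, and striated muscle makes a paralog of Rpl3, Rpl3l, in place of much of the ubiquitous protein. RNA-seq of this kind measures the level of these mRNAs and not their translation. In whole muscle, fewer cells of a type and less RNA per cell cannot be told apart.

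The TOP motif lies where transcription begins, so 30 bases around the start of the gene (10 before and 20 from the start on, RefSeq, GRCm38.p6, printed on the strand of the gene) are shown for members that differ both in that sequence and in their change. The longest run of C and T that begins with C is in capitals, if it holds 4 bases or more. Rplp2, Rpl38, Rps12 and Rps18 carried such a run and rose in the KO-labelled libraries. Rps28 rose and had none in this window, and Rps6 and Rpl35 had a run and did not pass the test. These are chosen examples, and the run may lie anywhere in the window, not only at the start. Of risen subunit proteins not shown, Rpl36a, Rps15a, Rps21 and Rps23 had a run, and Rpl37, Rpl37a, Rpl41 and Rps16 had none.
Rplp2 (chr7:141447641-141447670, plus strand): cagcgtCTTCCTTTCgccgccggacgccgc
Rpl38 (chr11:114668570-114668599, plus strand): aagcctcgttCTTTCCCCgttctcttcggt
Rps12 (chr10:23787190-23787219, minus strand): tcatgcggccaccgccggCCTTTTCCCCTg
Rps18 (chr17:33955646-33955675, minus strand): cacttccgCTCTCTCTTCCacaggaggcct
Rps28 (chr17:33824543-33824572, minus strand): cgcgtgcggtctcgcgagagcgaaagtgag
Rps6 (chr4:86857348-86857377, minus strand): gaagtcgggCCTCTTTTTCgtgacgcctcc
Rpl35 (chr2:39005112-39005141, minus strand): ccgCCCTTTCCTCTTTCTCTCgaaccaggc
RefSeq promoters were at hand for 66 of the 91 members, 57 of them among the 77 subunit proteins. The letters CTTTC, read on the strand of the gene within 30 bases of the start on either side, were present in 19 of these 57 (33.3%) and in 7.78% of 27025 promoters. The same letters in reverse complement, GAAAG, were present in 10.5% and 7.19%, and CTTTT in 12.3% and 6.34%. Of the 13 subunit proteins with a promoter whose mRNA rose, 3 (23.1%) held CTTTC. The letters CCGGAAG, the core bound by ETS factors such as Gabpa, were found on either strand of the window from 250 bases before to 50 after the start in 23 of the 57 (40.4%), in 6 of those 13 (46.2%) and in 9.12% of all promoters. A match of letters describes the window and is no measured binding site.

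Summed over all members, ribosomal protein mRNA was more abundant in the KO-labelled libraries than in WT. Its share of all transcripts, as the sum of the deposited TPM values (which are scaled to gene length and to a fixed sum per library), was 3.78, 3.56 and 3.91% for WT mice 1, 2 and 3, against 4.58, 4.22 and 4.29% for KO-labelled mice 1, 2 and 3. The groups did not overlap, and the mean sum was 37447 ± 1775 TPM in WT and 43559 ± 1849 in the other group (SD, n = 3 each), a ratio of 1.16. In normalized CPM the sums were 12632, 12629 and 16313 in WT and 16794, 16381 and 16848 in the KO-labelled libraries, a ratio of 1.20. On this scale WT library 3 lay next to the other group. That library was the highest of the WT libraries in 82 of the 91 members, and it stood apart from WT libraries 1 and 2 in fiber type and blood markers as well: slow fiber markers summed to 1308 CPM in it against 6279 and 7365, and erythroid markers to 56.1 against 297 and 291. Fast fiber markers summed to 146766 and 156910 CPM in WT libraries 1 and 2 and to 233958 in WT library 3, which lay within the 220465 to 247583 of the KO-labelled libraries. The median log2 fold change of this list was 0.44, and 0 of its 10 genes passed the test in either direction. Myh1 and Pvalb were below 0, at -1.03 and -0.08, and the rest above. In KO-labelled libraries 1, 2 and 3 the slow fiber sums were 1505, 4236 and 1891 CPM and the erythroid sums 136, 181 and 97.6. The part of these markers in the level of the ribosomal proteins was not tested. The members varied more within WT, with a median coefficient of variation of 15.7% against 4.21% in the KO-labelled libraries, and the WT value was the larger in 84 of 91 members. Neither this spread nor the rank of WT library 3 is given here for all genes, so neither is shown to be particular to the members.

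**Figure D1:**
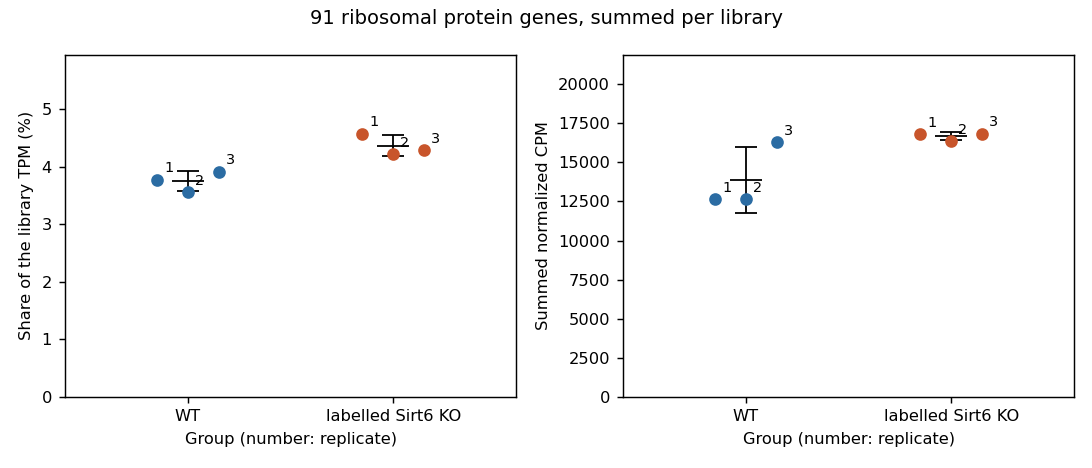
Summed level of the 91 ribosomal protein genes in each library, as the share of the library's TPM in percent (left) and as summed normalized CPM (right), for WT (blue) and KO-labelled libraries (orange). Points are libraries with their replicate number, and bars give the mean and SD over 3 libraries; the TPM shares of the groups do not overlap, while WT library 3, at 16313 CPM, lies just under the other group on the right.

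All 91 members were among the 13801 genes tested with edgeR's quasi-likelihood test. At an adjusted p under 0.05 (Benjamini-Hochberg over all genes tested), 20 members rose (22.0%) and 2 fell (2.20%) in the KO-labelled libraries, against 7.85% of all genes tested that rose and 8.39% that fell. The log2 fold change was above 0 in 75 of the 91 (82.4%) and in 48.4% of all genes. Its median over the members was 0.27, against -0.02 over all genes. Every KO-labelled library lay above every WT library in 46 members (50.5%, against 20.3% of all genes) and below in 6 (6.59%, against 19.6%). The count of members that rose depended on single libraries, as did that of all genes. Without WT library 3, 52 members rose (57.1%, against 16.7% of all genes). Without WT library 1 or 2 it was 5 and 0 members, against 1.29 and 0.685% of all genes. Without KO-labelled libraries 1, 2 and 3 it was 0, 7 and 1 members, against 0.0426, 3.06 and 0.0567% of all genes. In the fits with 0, 33 members (without WT library 2) and 28 (without KO-labelled library 1) had an unadjusted edgeR p under 0.05 in either direction. The share of all genes in these fits is not given here, so the counts show no excess over it. With all 6 libraries it was 41 of 91 members and 4875 of 13801 genes. The median log2 fold change of the members stayed between 0.23 and 0.40 in the 6 fits with a library left out.

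**Figure D2:**
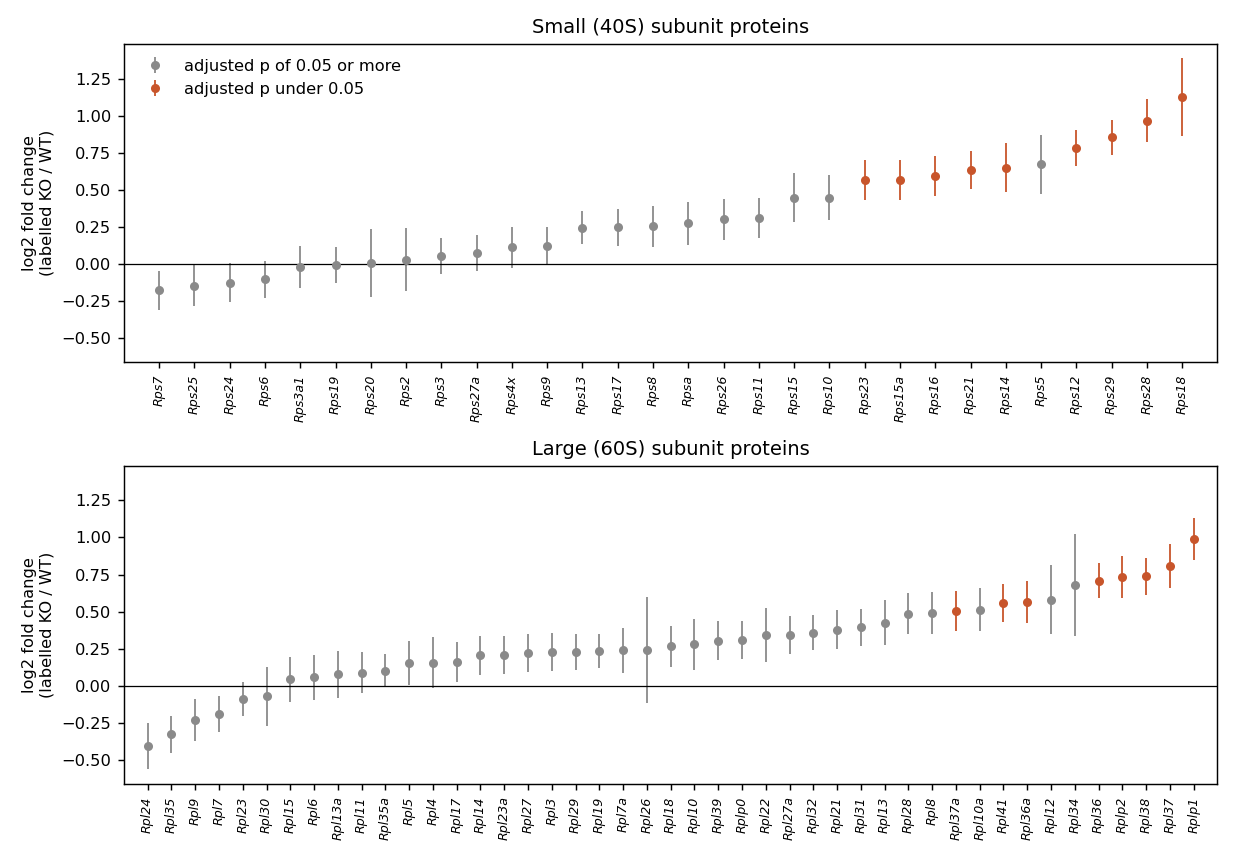
Log2 fold change (KO-labelled libraries over WT, edgeR) of the small (top) and large (bottom) subunit proteins, ordered by value, with bars of 1 standard error; orange marks an adjusted p under 0.05. Most points lie above 0 in both subunits, from -0.41 (Rpl24) to 1.12 (Rps18); Rps27, whose coding sequence is shared with a copy, is left out, as is a gene that is not reported here.

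The subunits had the same median change. Of the 31 small subunit proteins 9 rose (29.0%), and of the 46 large subunit proteins 9 rose (19.6%), and the median log2 fold change was 0.27 in each. None of these 77 fell by edgeR or by DESeq2, and 2 were lower at edgeR's unadjusted p under 0.05. The summed TPM of the small subunit proteins was 15391 ± 619 in WT and 18263 ± 801 in the KO-labelled libraries, and that of the large subunit proteins 20322 ± 840 and 23621 ± 1071 (SD, n = 3 each). Among 331 other genes at or above 317 TPM, the lower quartile of the subunit proteins, 18 rose (5.44%), 26 fell (7.85%), and the median log2 fold change was -0.01. This set has no upper limit and reached 44777 TPM, against 1443 for the most abundant subunit protein. Its median gene length was 1779 bases, against 833 for the subunit proteins. The proteins of the mitochondrial ribosome had a median of -0.09, with 5 of 78 higher (6.41%) and 9 lower (11.5%). Among all genes tested the median was -0.02, and 7.85% rose and 8.39% fell. Translation initiation factors had a median of 0.01, with 4 of 54 higher and 2 lower. The differences between these families were not tested.

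The acidic stalk of the large subunit recruits the elongation factors and consists of Rplp0 and the smaller Rplp1 and Rplp2. Rplp1 (gene 56040; chr9:61913283-61914510, GRCm38.p6) was at 199, 201 and 255 CPM in WT and at 433, 412 and 454 in the KO-labelled libraries. Its lowest value in the latter was far above the highest in WT, and the log2 fold change was 0.99 ± 0.14 (SE; adjusted p = 0.0132 from edgeR). It was also the most abundant member per length over all libraries, at 1013 ± 43.0 TPM in WT and 1872 ± 104 in the KO-labelled libraries (SD, n = 3 each). Rplp2 (chr7:141447651-141451359) was at 108, 116 and 143 CPM in WT and at 220, 197 and 191 in the KO-labelled libraries, a log2 fold change of 0.73 ± 0.14 (SE; adjusted p = 0.0200 from edgeR). Rplp0 (chr5:115559467-115563729), the next most abundant member and often used as a reference gene in qPCR, was at 583, 606 and 690 CPM in WT and at 760, 780 and 783 in the KO-labelled libraries. These groups did not overlap either, but the log2 fold change was 0.31 (standard error 0.13) and missed the threshold (adjusted p = 0.136 from edgeR).

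Of the small subunit proteins with the smallest p, Rps28 (chr17:33823036-33824562), a small protein near the exit of the mRNA, was at 45.5, 47.8 and 62.5 CPM in WT and at 94.6, 100 and 109 in the KO-labelled libraries. Rps29 (chr12:69157722-69159186), a zinc-binding protein of the subunit's head, was at 112, 124 and 137 CPM in WT against 216, 232 and 227. Rps12 (chr10:23785183-23787383), a protein of the beak, was at 121, 124 and 149 CPM against 229, 223 and 226. For all 3 the groups lay well apart, with log2 fold changes of 0.97, 0.86 and 0.78 and adjusted p of 0.0134, 0.0131 and 0.0138 from edgeR. These 3 and Rplp1 and Rpl38 were the members that passed in 3 of the 6 fits with 1 library left out, the most that any of the 20 risen members reached. Rps18 (chr17:33951998-33955665) was at 87.0, 75.8 and 114 CPM in WT and at 254, 217 and 131 in the KO-labelled libraries. Its log2 fold change was the largest of the subunit proteins (1.12, standard error 0.26, adjusted p = 0.0318 from edgeR), but its KO-labelled library 3 lay close to WT library 3, and it passed in 1 of those 6 fits.

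**Figure D3:**
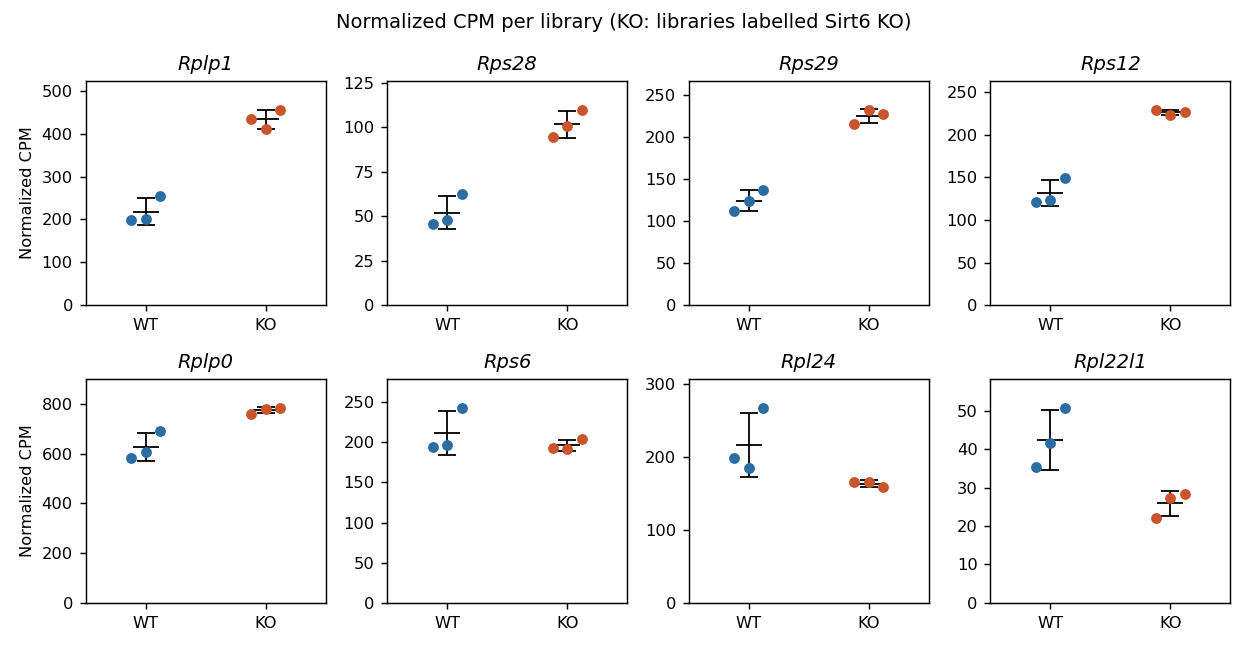
Normalized CPM of 8 ribosomal protein genes in each library (KO: KO-labelled libraries), with the mean and SD over 3 libraries. Rplp1, Rps28, Rps29, Rps12 and Rplp0 do not overlap between the groups and are higher in the KO-labelled libraries, Rpl22l1 and Rpl24 are lower without overlap, and Rps6 overlaps.

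Among the large subunit proteins, Rpl38 (chr11:114667818-114672333), whose loss in mice alters the axial skeleton, was at 43.7, 55.9 and 55.3 CPM in WT and at 87.1, 83.6 and 87.4 in the KO-labelled libraries (log2 fold change 0.74, adjusted p = 0.0161 from edgeR). Rpl36 (chr17:56610094-56614246) was at 74.9, 78.9 and 88.6 CPM against 143, 129 and 125, and Rpl37 (chr15:5116613-5119140), another zinc-binding protein, at 76.3, 84.0 and 108 against 164, 146 and 158. Neither overlapped between the groups, at log2 fold changes of 0.71 and 0.81. Rpl36a and its paralog Rpl36al, which encode nearly the same protein, had log2 fold changes of 0.56 (adjusted p = 0.0388 from edgeR) and 0.50 (adjusted p = 0.0569). Further members that rose, named after their values were seen, included Rpl37a, Rpl41, Rps14, Rps15a, Rps16, Rps21 and Rps23, with log2 fold changes between 0.51 and 0.65.

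Several members with well-known roles of their own did not pass the test. Rps6, the target of S6 kinase downstream of mTORC1, was at 194, 197 and 243 CPM in WT and at 193, 192 and 204 in the KO-labelled libraries (log2 fold change -0.10, standard error 0.13). Rps19, the gene most often mutated in Diamond-Blackfan anaemia, was at 74.97, 71.1 and 90.7 CPM against 81.1, 75.1 and 79.2, so that the groups overlapped. Rpl5 and Rpl11, which bind Mdm2 as a complex with 5S RNA when ribosome assembly fails, had log2 fold changes of 0.15 and 0.09. Those of Rps3, Rps27a (made as a fusion with ubiquitin) and Rpsa (also known as the laminin receptor) were 0.05, 0.07 and 0.27, with adjusted p of 0.779, 0.708 and 0.226 from edgeR. Lower values came from Rpl24 (198, 184 and 267 CPM in WT, 166, 166 and 158 in the KO-labelled libraries) and Rpl35 (141, 143 and 176 against 122, 127 and 118). Both lay below WT without overlap, at log2 fold changes of -0.41 and -0.33, and neither passed (adjusted p = 0.114 and 0.109 from edgeR).

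The 2 members that fell were both among the 6 paralogs: Rpl22l1 (chr3:28805508-28807424), a homolog of Rpl22, and Rpl7l1 (chr17:46773907-46782656), a homolog of Rpl7. Rpl22l1 was at 35.2, 41.5 and 50.7 CPM in WT and at 22.0, 27.3 and 28.3 in the KO-labelled libraries, a log2 fold change of -0.72 ± 0.16 (SE; adjusted p = 0.0309 from edgeR). Rpl7l1 was at 44.8, 40.5 and 38.5 CPM against 27.1, 31.7 and 32.8, a log2 fold change of -0.43 ± 0.12 (SE; adjusted p = 0.0461). Each passed in 1 of the 6 fits with 1 library left out, and neither passed once the trend over GC content was removed (adjusted p = 0.0951 and 0.0582 from edgeR). Rpl22 itself was at 87.1, 80.2 and 128 CPM in WT and at 130, 115 and 128 in the KO-labelled libraries, which overlapped. The TPM ratio of Rpl22l1 to Rpl22, which does not depend on the scaling between libraries, was 1.88, 2.40 and 1.84 in WT and 0.781, 1.09 and 1.02 in the KO-labelled libraries. Rpl22l1 thus went from 66.9% to 48.8% of the pair's TPM in the mean, a difference in log2 ratio of -1.08 (p = 0.1 in a two-sided exact permutation test, which cannot go lower with 3 animals against 3; 0.233 after Benjamini-Hochberg adjustment over 7 pairs).

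Rpl3l (chr17:24727826-24736143), the striated muscle paralog, exceeded Rpl3 (chr15:80077781-80083406) in every library. Its level was 826, 640 and 723 TPM in WT and 730, 845 and 779 in the KO-labelled libraries, while Rpl3 was at 49.2, 51.8 and 32.9 TPM and at 50.2, 47.2 and 45.6. The ratio of the pair was 16.8, 12.3 and 22.0 in WT and 14.5, 17.9 and 17.1 in the KO-labelled libraries. The groups overlapped (two-sided exact permutation test on the log2 ratio, p = 1), and Rpl3l made up 94.2% of the pair's TPM in each group. Of the other pairs, Rpl36al to Rpl36a and Rpl7l1 to Rpl7 differed in log2 ratio by -0.07 and -0.25 (two-sided exact permutation p = 0.2 and 0.3). Rps4l was at 1.04, 0.848 and 1.13 CPM in WT and at 2.68, 1.29 and 1.31 in the KO-labelled libraries, and its ratio to Rps4x reached the smallest p the design allows (exact permutation p = 0.1, adjusted 0.233), although Rps4l is expressed at under 1% of Rps4x in TPM. Rps27l, a p53-responsive paralog of Rps27, was at 44.6, 48.3 and 63.1 CPM against 48.3, 36.6 and 43.4 (log2 fold change -0.28, adjusted p = 0.260 from edgeR). Its ratio to Rps27 cannot be read, because in 1 library nearly all counts of the gene sat on a copy.

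That copy is Rps27rt (chr9:114982366-114982739), a retrotransposed gene whose annotated coding sequence is the same as that of Rps27 (chr3:90212667-90213648) at all 255 bases (GENCODE M21, GRCm38). The sequence common to both is shown with its start and stop codons in capitals, since no read that lies within it can be assigned to either gene.
Rps27 and Rps27rt: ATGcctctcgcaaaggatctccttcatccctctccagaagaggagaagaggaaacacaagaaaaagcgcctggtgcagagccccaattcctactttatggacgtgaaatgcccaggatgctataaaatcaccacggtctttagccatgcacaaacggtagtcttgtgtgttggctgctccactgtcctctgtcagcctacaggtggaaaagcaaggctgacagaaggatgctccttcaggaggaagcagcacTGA
In WT library 3, Rps27 was at 1.33 CPM and Rps27rt at 115, so that the copy took 98.9% of the pair's counts. In the other 5 libraries Rps27 was at 91.2, 91.8, 105, 102 and 106 CPM and the copy took between 0.161 and 1.02%. The fold changes of the single genes (0.77 for Rps27 and -5.80 for Rps27rt, adjusted p = 0.637 and 0.102 from edgeR) rest on this library, and without it that of Rps27rt was 0.51. Summed over both, the pair was at 92.1, 92.0 and 117 CPM in WT and at 105, 103 and 107 in the KO-labelled libraries, a log2 fold change of 0.07 ± 0.13 (SE; adjusted p = 0.726).

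**Figure D4:**
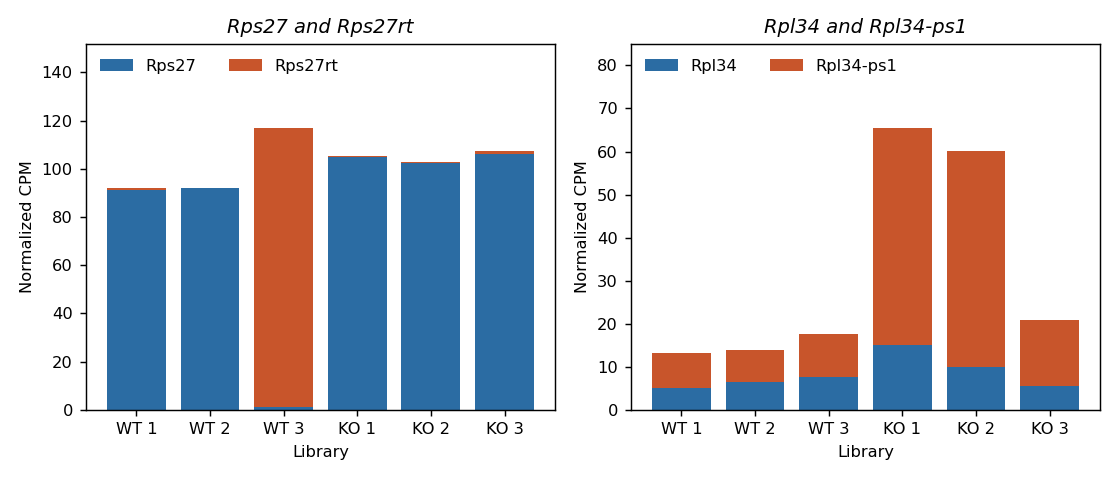
Normalized CPM of Rps27 with its copy Rps27rt (left) and of Rpl34 with its copy Rpl34-ps1 (right), stacked per library (KO: KO-labelled libraries). Nearly all counts of the first pair sit on the copy in WT 3 alone, and the second pair is highest in KO 1 and KO 2, at 65.4 and 60.1 CPM.

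Rpl34-ps1 (chr6:71124589-71125001) is named as a pseudogene of Rpl34 (chr3:130726827-130730398) and differs from its coding sequence at 2 of 354 bases, T132C and C318G, where positions count from the A of the start codon and the base of Rpl34 comes first. Positions 117 to 333 are shown with these bases in capitals, because between them, over 185 bases, the genes are the same.
Rpl34: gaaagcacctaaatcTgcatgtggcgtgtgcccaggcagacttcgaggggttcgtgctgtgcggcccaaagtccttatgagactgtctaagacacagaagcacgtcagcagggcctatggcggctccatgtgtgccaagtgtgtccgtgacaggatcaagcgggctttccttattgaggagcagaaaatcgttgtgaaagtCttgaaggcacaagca
Rpl34-ps1: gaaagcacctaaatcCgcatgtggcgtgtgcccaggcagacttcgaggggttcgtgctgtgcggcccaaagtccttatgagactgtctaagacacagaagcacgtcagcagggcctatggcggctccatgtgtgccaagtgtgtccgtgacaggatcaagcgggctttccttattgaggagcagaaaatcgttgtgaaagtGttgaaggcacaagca
Rpl34-ps1 was at 8.24, 7.42 and 10.2 CPM in WT and at 50.4, 50.1 and 15.2 in the KO-labelled libraries, the largest log2 fold change of the members (2.16, standard error 0.43, adjusted p = 0.0216 from edgeR). KO-labelled libraries 1 and 2 were far above all others, and library 3 lay near WT. Rpl34 was at 5.03, 6.43 and 7.56 CPM against 14.9, 10.01 and 5.54, which overlapped. The copy held between 53.6 and 83.3% of the pair's counts in the 6 libraries, and the sum of the pair went from 14.9 ± 2.41 CPM to 48.7 ± 24.4 (SD, n = 3 each), which gave a log2 fold change of 1.71 (adjusted p = 0.0315 from edgeR). Given the near identity, how much came from either gene is uncertain.

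Rpl37rt (chr5:115102922-115110268) differs from Rpl37 at 1 of 294 coding bases, G249A, shown in capitals within positions 234 to 264.
Rpl37: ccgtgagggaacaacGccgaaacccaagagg
Rpl37rt: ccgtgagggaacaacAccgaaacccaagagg
Rpl37rt was at 3.69, 4.45 and 5.29 CPM in WT and at 9.83, 8.93 and 7.43 in the KO-labelled libraries, a log2 fold change of 0.96 ± 0.19 (SE; adjusted p = 0.0214 from edgeR). The copy took between 4.48 and 5.75% of the pair's counts in all libraries, and the sum of the pair rose by 0.82 on the log2 scale (adjusted p = 0.0181 from edgeR). With 1 differing base, how much of the counts came from the copy itself is uncertain here too. The other copies, Rps19-ps3, Rpl31-ps12, Rpl14-ps1 and Rps15a-ps6, were at 1.65 CPM or less in every library and did not pass. Rps19bp1 was at 5.09, 3.90 and 3.84 CPM against 5.13, 4.65 and 4.38, which overlapped. With the counts of all copies added to their parent genes, 84 members remained, of which 20 rose and 2 fell, with a median of 0.25.

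The members are short genes, and the shorter ones had the larger fold changes. Gene length was derived from the ratio of the deposited counts to the deposited FPKM. Across the 77 subunit proteins, the log2 fold change had a Spearman correlation with length of -0.43, against -0.12 across all 13715 genes with a known GC content and 0.09 across 882 other short genes, whose median log2 fold change was 0.09. These are descriptions across genes of the same libraries, and genes are no replicates. Of the 38 shorter subunit proteins (808 bases or less) 15 rose (39.5%), with a median of 0.47. Of the 39 longer ones (833 bases or more) 3 rose (7.69%), with a median of 0.22. Among all genes tested 7.85% rose, so that the share of the longer ones was near that of all genes. Removing a trend over length in each library gave 15 members higher and 4 lower (7.51 and 7.92% of all genes), with a median of 0.17. Fold changes also rose with GC content, at a Spearman correlation of 0.33 across the subunit proteins and 0.33 across all genes. Removing that trend gave 10 members higher and 1 lower (3.41 and 3.52% of all genes), with a median of 0.27. Among the members described above it ended the calls of Rps18 (1.05, adjusted p = 0.0548 from edgeR), Rplp2 (0.55, 0.0587), Rpl38 (0.49, 0.0591), Rpl36a (0.56, 0.0587) and Rpl36 (0.44, 0.0604). The GC correction also ended those of Rpl37a (0.26, adjusted p = 0.239 from edgeR), Rps14 (0.44, 0.132), Rpl41 (0.38, 0.105) and Rps16 (0.54, 0.0551). It kept those of Rplp1, Rps28, Rps29, Rps12, Rpl37, Rpl37rt, Rpl34-ps1, Rps15a, Rps21 and Rps23. The 1 lower member was then Rpl35 (-0.55, adjusted p = 0.0468).

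**Figure D5:**
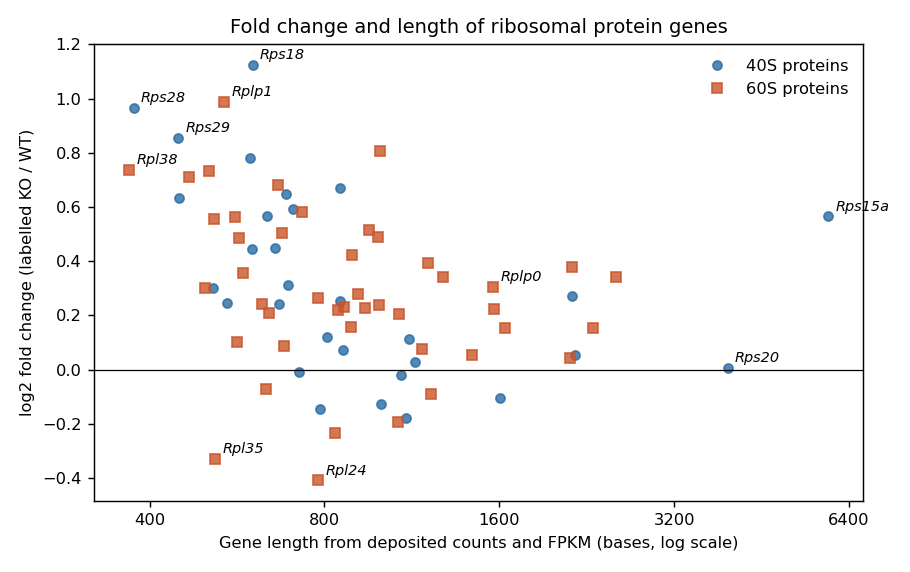
Log2 fold change (KO-labelled libraries over WT, edgeR) against gene length in bases (log scale) for the subunit proteins shown, without Rps27; circles are small and squares large subunit proteins. The 15 shorter genes that rose include Rps28, Rps29, Rpl38 and Rplp1, while Rpl35 and Rpl24, also short, have the lowest values.

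Fau, which lies outside the naming rule and encodes Rps30 joined to a ubiquitin-like protein, was at 56.3, 59.2 and 78.0 CPM in WT and at 95.9, 90.7 and 95.2 in the KO-labelled libraries. It rose without overlap (log2 fold change 0.54, adjusted p = 0.0425 from edgeR). Among 21 ribosome-bound, elongation and other TOP mRNAs, 3 rose (14.3%) and 1 fell (4.76%), with a median of 0.16. The shares among all genes tested were 7.85 and 8.39%. Rack1, a scaffold on the small subunit, rose by 0.55 on the log2 scale, and the initiation factor subunits Eif3f and Eif3k by 0.70 and 0.50. The RNA-binding protein Hnrnpa1, also a TOP mRNA, fell by 0.73.

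Genes that make ribosomes are given beside the 7.85% of all genes that rose and the 8.39% that fell. Of 16 genes of RNA polymerase I, which transcribes ribosomal RNA, 2 rose (the large subunit Polr1a, 0.39, and Znrd1, 0.45) and 1 fell (Taf1d, -0.85), with a median of 0.13 for the list. Of 65 ribosome biogenesis factors 5 rose and 5 fell (7.69% each), which is near the share among all genes, with a median of 0.09. Those with the smallest p were Noc4l (0.61), Rrp1 (0.46) and Surf6 (0.67) among the higher and Rsl1d1 (-0.55), Utp14a (-0.62) and Gnl3 (-0.50) among the lower. Of 21 tested regulators of ribosomal protein synthesis 3 rose and 4 fell, and their median was 0.0034. Rheb, the direct activator of mTORC1, was at 81.7, 92.5 and 101 CPM in WT and at 48.9, 54.4 and 48.9 in the KO-labelled libraries, and Larp4, an mRNA-binding protein of the La family, was at 89.7, 78.3 and 73.2 against 38.2, 49.7 and 41.0. Both fell without overlap, by 0.85 and 0.90 on the log2 scale, and Max, the partner of Myc, fell by 0.53. Mlst8, a subunit of mTORC1, and Rps6kb2, an S6 kinase, rose by 0.63 and 0.41, and Trp53 rose by 0.83.

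Markers of other cells were looked at beside these values. Satellite cell markers summed to between 25.5 and 33.3 CPM in WT and between 38.2 and 52.4 in the KO-labelled libraries, and 3 of the 4 (Pax7, Myf5 and Cdh15) rose. The other, Chodl, was at 8.72, 8.46 and 8.74 CPM in WT and at 8.13, 5.46 and 4.85 in the KO-labelled libraries (log2 fold change -0.49, adjusted p = 0.139 from edgeR). The sum of the 5 Schwann cell markers was between 25.8 and 69.2 CPM in WT and between 24.4 and 35.5 in the KO-labelled libraries. The sums of the macrophage (38.8 to 80.9 CPM in WT, 46.3 to 56.5 in the KO-labelled libraries), fibroblast (588 to 1063, 714 to 789), endothelial (161 to 296, 200 to 204) and adipocyte (124 to 257, 162 to 293) markers overlapped between the groups. The part of other cells in the level of the ribosomal proteins was not tested.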

How the data were processed

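Counts, FPKM and TPM per gene came from 1 deposited table of the 6 libraries. The authors made the deposited counts with StringTie, as unnormalized whole numbers. In the deposited FPKM values they divided by library size and length, and the deposited TPM values have a fixed sum per library. Reads were paired, of 100 bp, from poly(A) RNA; the methods and the labels name different TruSeq kits, and use of the strand is not given in the sources used here. The submitters' processing notes list HISAT2 2.1.0, Bowtie2 2.3.4.1, StringTie 2.1.3b and mm10, and the reporting summary names STAR. Methods and reporting summary also name different Sirt6 flox lines.

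Counts of all genes were filtered (filterByExpr, 13801 of 24532 kept), normalized by TMM (factors 0.909 to 1.11) and tested with the quasi-likelihood test of edgeR 4.0.16 in R 4.3.3, with the group as the only factor and Benjamini-Hochberg adjustment at 0.05. CPM are TMM-normalized, and errors are SDs over 3 animals. Paralog ratios used TPM and two-sided exact permutation tests. Alternatives were DESeq2 1.42.0, limma 3.58.1 on quantile-normalized log2(FPKM + 1) or log2(FPKM + 0.1), other filters and scalings, a replicate block, GC and length offsets (lowess, span 0.3; GC content known for 99.4% of the genes tested), each library left out, and copies summed.

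Members and lists were chosen with earlier results of these data known. Members were named if they were listed paralogs with their partners, had a role set out, had the 5 largest or 5 smallest log2 fold changes, the 3 highest or lowest TPM, the 10 smallest p, or were copies. Up to 3 genes per direction were named from each other list. The results of some genes are not reported here.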

Additional observations from a re-analysis of the deposited data

How the results depend on the processing

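The members that rose numbered 20 in edgeR's test and between 17 and 29 with other scalings, other filters and limma on log2 FPKM values, but 33 with DESeq2 (which called 12.7% of all genes higher), 15 with the length correction and 10 after the GC trend was removed. Of the 2 that fell, Rpl7l1 lost its call without a filter, with limma at either pseudocount and with the replicate block (adjusted p = 0.0798), which left 1, Rpl22l1. With the GC correction 1 fell as well, but this was Rpl35. With the length correction 4 fell, Rpl24 and Rpl35 among them (adjusted p = 0.048 and 0.035). With each library left out in turn, 0 to 52 members rose and 0 to 2 fell, the median log2 fold change was 0.233 to 0.401, and the log2 ratio of summed CPM was 0.204 to 0.401 (0.218 from TPM). All 20 risen members kept a log2 fold change above 0 in those 6 fits, the lowest being 0.42. The replicate numbers are not known to mark shared animals or days. Deviations from the group means gave mixed correlations between same-numbered libraries (r = -0.137, 0.336 and 0.220). Between libraries of different numbers r lay between -0.406 and 0.260. With the replicate number as a block, 18 members rose, 1 fell, and 9 rather than 15 pathway genes outside the members rose.

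The pathway genes that rose numbered 27 with DESeq2 and 0 to 39 with a library left out (0 to 11 fell, 11 in the main test). Among all genes, 12.7% rose and 13.2% fell with DESeq2, and 3.41 and 3.52% did after the GC correction. With a library left out, between 0.0426 and 16.7% of all genes rose. The main test held 78 mitochondrial ribosomal proteins and 54 initiation factors. After the GC correction 2 mitochondrial ribosomal proteins rose and 4 fell, and 1 initiation factor rose and 1 fell; with DESeq2 11 and 7 initiation factors did. With a library left out, 0 to 11 and 0 to 13 mitochondrial ribosomal proteins and 0 to 17 and 0 to 7 initiation factors rose and fell. The log2 paralog ratio differences were then -0.225 to 0.192 for Rpl3l (0.192 without WT library 3 and 0.077 without KO-labelled library 1), -1.18 to -0.940 for Rpl22l1, -3.98 to -0.308 for Rps27l, -7.61 to 0.695 for Rps27rt (0.695 without WT library 3), -0.0938 to -0.0489 for Rpl36al, -0.380 to -0.135 for Rpl7l1 and 0.270 to 0.789 for Rps4l.

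Of all 91 members, 11 changed sign with the GC correction, 8 with the length correction and 11 with some library left out. Among those not picked by the naming rule, Rpl14 and Rpl29 went from 0.21 and 0.23 to -0.0135 and -0.0335 and Rpl30 from -0.0723 to 0.27 with the GC correction, and Rpl26 went from 0.24 to as low as -0.0645 with a library left out. For members named by the rule, the log2 fold changes with a changed sign were -0.0417 (GC) and -0.0296 (length) for Rpl11, -0.0748 (GC) for Rps19bp1, and -0.0342 and -0.0052 (length) for Rps27a and Rps3. Rps19 was at 0.0019 (FPKM filter), 0.0173 and 0.0175 (limma at pseudocounts 1 and 0.1) and 0.0132 (upper quartile). With a library left out, Rps19 lay between -0.0777 and 0.106 (0.0355 without KO-labelled library 2), Rps6 between -0.153 and 0.0100 and Rps27rt between -6.39 and 0.514, each highest without WT library 3. The causes were not tested. Summing the copies was chosen after seeing the data. Depth limits the rarest copies, such as Rps15a-ps6 with 77 counts in all.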
